A study of Mus musculus with 7 samples.

Results

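Among the sites that Suz12 occupied in mouse embryonic stem cells (ESCs), those described here were narrow and had no Zfp281 peak called over them. They were the Suz12 peaks below 4000 bp in width that shared not a single base with a Zfp281 peak of the same cells, on chromosomes 1 to 19 and X. There were 4383 of them among 8184 ESC Suz12 peaks, or 53.6% (95% Wilson interval 52.5 to 54.6%), and among 63934 peaks in the 5 peak lists of the study. The ESCs were of strain 129S1 and were grown on gelatin without feeder cells in serum with LIF. One chromatin immunoprecipitation sequencing (ChIP-seq) library was made from them with an antibody against Suz12 and one with an antibody against Zfp281. Extraembryonic endoderm stem cells (XENs) of the same strain, grown in MEF-conditioned medium, gave the Zfp281 list used below for comparison. Each group was 1 library with 0 replicates, so no difference could be set against a spread between replicates and no p-value is given. Input libraries of both cell types were not analysed here. The intervals given with shares and medians reflect counting error alone, and peaks that lie close together are not independent of one another.

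Suz12 is a core subunit of Polycomb repressive complex 2 (PRC2), the enzyme that methylates histone H3 at lysine 27. In ESCs this complex is known to sit at CpG-rich promoters of genes that are silent but needed later in development, either as broad domains over whole gene clusters or as small foci over a single promoter. Zfp281 is a zinc finger factor that binds G-rich DNA and belongs to the regulatory network of pluripotent cells. The sites were chosen by their Suz12 peak width and by the overlap of the 2 lists. Width, overlap and the strength of the same Suz12 peaks are therefore given as a description, with no test.

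The sites took up most of the list by number and a minor part of it by length. They made up 57.2% of the 7658 narrow Suz12 peaks (56.1 to 58.3%) but 33.2% of the length that all Suz12 peaks cover. The remaining 3275 narrow peaks overlapped a Zfp281 peak. Of the 526 Suz12 peaks of 4000 bp or more, 472 overlapped Zfp281 and 54 did not, or 10.3% (7.95 to 13.2%). Those 54 had a median width of 4651 bp, and the 472 with Zfp281 a median of 6749 bp.

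The sites were small and weakly enriched. Their width ranged from 350 to 3987 bp with a median of 778 bp (quartiles 514 and 1199 bp). The authors' fold enrichment of Suz12 at the summit was taken to be the pileup of fragments over the expected local level. It had a median of 4.80 (interval 4.74 to 4.90, quartiles 3.89 and 6.75) and reached from 2.24 to 32.1. Narrow peaks with Zfp281 had a median width of 1116 bp and a median fold of 5.94 (5.82 to 6.09), and wide peaks a median fold of 19.6 (18.8 to 20.4). The authors' -log10 q-value had a median of 7.29 at the sites, 12.1 at narrow peaks with Zfp281 and 88.1 at wide peaks. Of the sites, 18 reached the median fold of the wide peaks, or 0.411% (0.260 to 0.648%). With only the higher-scoring 50% of Suz12 peaks there were 1742 sites, with a median fold of 7.37 and a median -log10 q-value of 17.8.

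The depth behind each site was estimated from its fold and p-value, under assumptions given with the processing. It is a number of fragments at the summit, called tags here. The median site had 36 tags (quartiles 28 and 51), and the least covered had 18 tags. At most 30 tags lay at 1423 sites, or 32.5%, and 4231 sites, or 96.5%, had at most 100 tags. Narrow peaks with Zfp281 had a median of 47 tags and wide peaks a median of 159. The expected local level that the fold was taken against is on another scale, on which 1 tag counts as 0.590, so the tags over this level are not the fold. It had a median of 3.15 at the sites, 3.50 at narrow peaks with Zfp281 and 3.50 at wide peaks. The classes thus differed more in Suz12 tags than in the level behind them. The share of peaks whose expected level exceeded the lowest level in the list, 2.82, by over 1% was 68.9% at the sites (67.5 to 70.3%) and 74.6% at narrow peaks with Zfp281 (73.1 to 76.1%), and the part of this in the fold was not tested.

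The strongest Suz12 peaks of the cells were nearly all outside this class. This is tied to the choice of sites, because the width limit left out the wide peaks, whose median -log10 q-value was 88.1. The counts by rank are therefore a description. None of the 50 peaks with the highest -log10 q-value belonged to it (upper Wilson bound 7.13%), and 2 of the highest 100 did. In the highest 1000 there were 167, or 16.7% (14.5 to 19.1%), and among the 2046 lowest of the list 1430, or 69.9% (67.9 to 71.8%). Wider sites also had higher folds, with a Pearson's r of 0.684 and a Spearman's rho of 0.696 across 4383 sites of 1 library, given as a description. The summit lay near the middle of the site, at a median of 49.3% of its width (quartiles 34.5 and 64.8%).

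The share of narrow Suz12 peaks that lacked Zfp281 was lower in wider peaks. Counted by overlap, this share is tied to width, because a longer peak has more bases that a Zfp281 peak can touch. Of the 1450 peaks below 500 bp, 70.1% had no overlapping Zfp281 peak (67.7 to 72.4%), and of the 307 peaks of 3000 bp and more, 27.7% had none (22.98 to 32.9%). The same peaks were also counted in a window of fixed length, by the absence of any Zfp281 peak within 500 bp of the Suz12 summit. By that measure the share was 58.3% below 500 bp (55.8 to 60.9%) and 47.6% from 3000 bp (42.0 to 53.1%). Both shares were lower in the widest class than in the narrowest, by intervals that do not overlap. By fold, the share without overlap was 68.0% from 3 to 4 (65.7 to 70.3%) and 36.4% from 12 to 20 (32.6 to 40.3%), and around the summit it was 60.9% (58.5 to 63.3%) and 45.1% (41.1 to 49.1%).

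**Figure D1:**
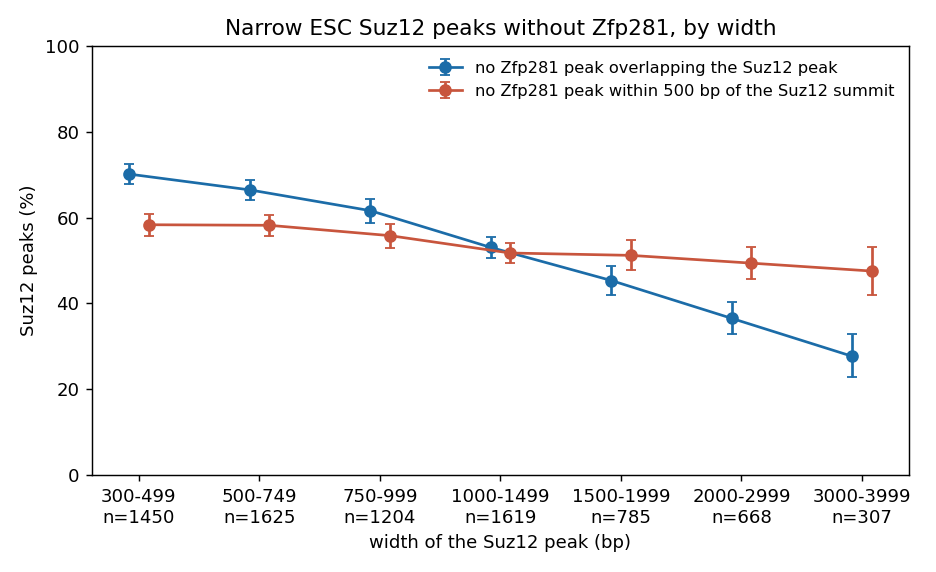
Narrow ESC Suz12 peaks without Zfp281 in percent (vertical axis) by width of the Suz12 peak in bp (horizontal axis, n peaks per class), counted by overlap (blue) or by absence of a Zfp281 peak within 500 bp of the Suz12 summit (red). Points are shares of peaks and bars their 95% Wilson intervals; the blue series goes from 70.1% to 27.7% and the red one from 58.3% to 47.6%.

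Width and strength were also held together. Among Suz12 peaks from 500 to below 1000 bp with a fold of 3 to 5, 1049 of 1572 lacked Zfp281, or 66.7% (64.4 to 69.0%), and with a fold of 5 to 8 it was 62.8% (59.7 to 65.7%). In the same width class it was 51.3% at a fold of 8 to 12 (42.3 to 60.2%, n = 115) and 21.4% at 12 or more (7.57 to 47.6%, n = 14), and neither interval reaches that of a fold of 3 to 5. Among those from 1000 to below 2000 bp the share was 52.5% at a fold of 3 to 5 (47.8 to 57.2%) and 45.0% at a fold of 12 or more (39.1 to 51.1%), and these intervals overlap. Among those from 2000 to below 4000 bp it was 45.2% at a fold of 3 to 5 (31.2 to 60.1%, n = 42) and 28.1% at a fold of 12 or more (24.0 to 32.7%), and these intervals overlap as well. At 500 to 1000 bp the difference in median Suz12 signal was small, though the intervals of fold did not overlap. There the 1823 sites had a median fold of 4.58 (4.47 to 4.64) and 34 tags, and the 1010 peaks with Zfp281 had 4.81 (4.71 to 4.90) and 36 tags. In the wider classes these medians were not taken.

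The 10 sites with the highest -log10 q-value show what the strong end of the class looked like. They were 2127 to 3850 bp wide, with a fold of 18.8 to 32.1 and 152 to 216 tags. Of these 10, 8 had another Suz12 peak within 5 kb and 8 had a Zfp281 peak within 10 kb, outside the Suz12 peak itself. Over all sites these shares were 59.2% and 64.9%, and 64.7% of the whole Suz12 list had another Suz12 peak within 5 kb. With 10 peaks, a difference from those shares cannot be told. What the gene annotation holds at the positions below was not analysed here; they are given in the mm9 build that the submitters' processing notes name, counting from 1.

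The first, chr11:44424255-44428104, had a 32.1-fold enrichment from 216 tags, at an expected level of 3, and ranked 57 in the whole Suz12 list. It lay 422 bp from a wide Suz12 peak that did carry Zfp281. The second, chr12:84825521-84828158, was 29.2-fold with 202 tags and stood 645 bp from another site of the same class, with no Zfp281 peak closer than 7414 bp. Both were thus one piece of a pair of Suz12 peaks, with Zfp281 on the partner in the first pair and on neither peak in the second.

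The third, chr5:67484900-67487417, had a 28.8-fold enrichment and 185 tags and lay 258 bp from a wide Suz12 peak with Zfp281. The fourth, chr3:107398258-107402009, had a 27.8-fold enrichment, and a Zfp281 peak lay only 266 bp from it. The fifth, chr12:80231281-80233494, was the strongest that stood alone. It had a 22.9-fold enrichment from 192 tags, while its nearest Suz12 neighbour was 122326 bp away and its nearest Zfp281 peak 39648 bp away.

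Of the other 5, chr10:30562905-30565946 (23.8-fold) and chr6:70904360-70906543 (23.7-fold) were each paired with another site of the class. Next, chr1:4479858-4482089 (22.8-fold) and chr4:21616137-21619118 (23.9-fold) each shared a cluster with at least one wide Suz12 peak. The last of them, chr13:23486710-23488836 (18.8-fold, 175 tags), stood alone, 14334 bp from the next Suz12 peak.

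On either side of the width limit, the peaks nearest to it had overlapping ranges of fold. They are too few to tell whether the values break there. The widest sites below it were chr5:48374535-48378521 (3987 bp, 18.95-fold, 121 tags), chr11:100939848-100943796 (3949 bp, 14.8-fold, 115 tags) and chr5:28443025-28446963 (3939 bp, 12.1-fold, 141 tags). The narrowest peaks above it that also lacked Zfp281 were chr15:13101022-13105056 (4035 bp, 20.96-fold), chr13:78318880-78322957 (4078 bp, 13.7-fold, 90 tags) and chr10:77851911-77855995 (4085 bp, 4.17-fold, 62 tags). At the other limit, the site closest to a Zfp281 peak, chr2:77652757-77654496, was separated from it by 1 bp. Among narrow peaks left out because of Zfp281, chr7:28148788-28149404 and chr8:92872615-92873753 overlapped it by 1 bp. The Zfp281 list itself held peaks down to a 1.55-fold enrichment (5th percentile 3.15), and weaker binding was not detectable.

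Many of the sites had a Zfp281 peak nearby without overlapping it. The median distance from a site to the nearest ESC Zfp281 peak was 3995 bp (quartiles 630 and 18503 bp). It was at most 0.2 kb for 536 sites, or 12.2% (11.3 to 13.2%), at most 1 kb for 1349, or 30.8% (29.4 to 32.2%), and at most 5 kb for 2358, or 53.8% (52.3 to 55.3%). With only the higher-scoring 50% of Zfp281 peaks, which also changes the sites, the share within 5 kb was 33.3%. With all Zfp281 peaks, the 54 wide Suz12 peaks without Zfp281 lay at a median of 5303 bp (2769 to 12700 bp). That interval holds the 3995 bp of the sites, so a nearness particular to the sites was not shown. At the other end, 530 sites, or 12.1% (11.2 to 13.1%), had no Zfp281 peak within 50 kb, and 303, or 6.91% (6.20 to 7.70%), had none within 100 kb. The farthest was chr14:90296852-90297402, with 26 tags and 4.28-fold enrichment, 1347780 bp from any Zfp281 peak.

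Sites far from Zfp281 were wider and more enriched than those near it. This is tied to the choice of sites, which left out every Suz12 peak that touched Zfp281. Close to a Zfp281 peak, a wide Suz12 peak is more readily left out than a small one. The part of this in the values below was not tested. At a distance of at most 1 kb the median width was 745 bp and the median fold 4.74 (4.61 to 4.90, n = 1349). From 1 to 5 kb these were 723 bp and 4.54 (4.43 to 4.67, n = 1009), and from 5 to 20 kb 765 bp and 4.69 (4.59 to 4.82, n = 983). From 20 to 100 kb they were 835 bp and 5.36 (5.08 to 5.51, n = 739), and beyond 100 kb 1050 bp and 5.99 (5.41 to 6.53, n = 303). The intervals of fold overlapped among the first 3 groups, and those of the last 2 groups lay above them. Median tags went from 36 in the nearest group to 42 in the farthest, while the expected level went from 3.15 to 3. Without chromosome X the median fold beyond 100 kb was 5.98, and without the densest window described below it was 6.13. Over all 4383 sites the relation of distance and fold was weak, with a Pearson's r of 0.105 and a Spearman's rho of 0.0945, given as a description.

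**Figure D2:**
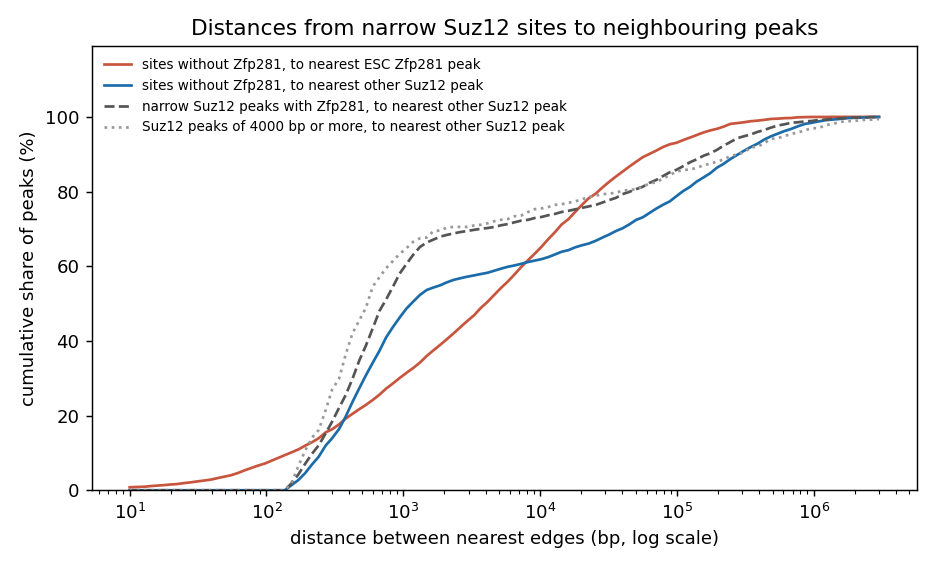
Cumulative share of peaks in percent (vertical axis) by distance between nearest edges in bp on a log scale (horizontal axis). The sites lie at a median of 3995 bp from a Zfp281 peak (red), and their distances to the next Suz12 peak (blue) rise steeply up to about 1 kb and then flatten, up to 100 kb below the curves of narrow peaks with Zfp281 (dashed) and of peaks of 4000 bp or more (dotted).

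The distance to the next Suz12 peak fell into a near and a far range. The choice of sites did not use this distance directly, but it used width, and a split of a Suz12 peak into pieces would change both. The part of this in the shares below was not tested. Another Suz12 peak lay within 1 kb of 2080 sites, or 47.5% (46.0 to 48.9%), and within 5 kb of 2595, or 59.2% (57.7 to 60.7%). Extending the limit to 10 kb added 115 sites and gave 61.8% (60.4 to 63.3%). The quartiles of the distance were 445 and 67433 bp, with a median of 1140 bp. Over the whole Suz12 list 64.7% of peaks had another within 5 kb. Among narrow peaks with Zfp281 the share was 70.8% (69.3 to 72.4%), and among wide peaks 72.4% (68.5 to 76.1%). The sites thus had a close Suz12 neighbour in a lower share of cases than either other class, by intervals that do not overlap. The order was the same at like width: at 500 to 1000 bp the shares were 57.5% without Zfp281 (55.3 to 59.8%) and 68.1% with it (65.2 to 70.9%).

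Linking Suz12 peaks that lie within 5 kb of one another divided the sites into 3 kinds of neighbourhood. Alone, with no other Suz12 peak in reach, stood 1788 sites, or 40.8% (39.3 to 42.3%). In a cluster where at least one other Suz12 peak overlapped Zfp281 there were 1114, or 25.4% (24.1 to 26.7%). In a cluster where no Suz12 peak overlapped Zfp281 there were 1481, or 33.8% (32.4 to 35.2%). Of all sites, the solitary ones included, 252, or 5.75% (5.10 to 6.48%), shared a cluster with a peak of 4000 bp or more. Most clustered sites thus neighboured narrow peaks only. Peaks of 4000 bp or more were 526 of the 8184 in the list, and the like share over all Suz12 peaks was not counted.

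Solitary sites were the weakest of the 3 kinds. Their median fold was 4.43 (4.36 to 4.53), with 33 tags and a width of 689 bp. Sites in clusters without Zfp281 were the strongest, with a median fold of 5.39 (5.26 to 5.56), 41 tags and 861 bp. Sites in clusters with Zfp281 lay between them, at 4.89 (4.68 to 5.07), 38 tags and 841 bp. The 3 intervals of fold did not overlap, while the expected level had the same median of 3.15 in all 3 kinds. In clusters with Zfp281 the choice of sites left out the Suz12 peaks that touched Zfp281, a wide one more readily than a small one. The order of the clusters with and without Zfp281 is therefore tied to that choice, and the part of this in the values was not tested.

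**Figure D3:**
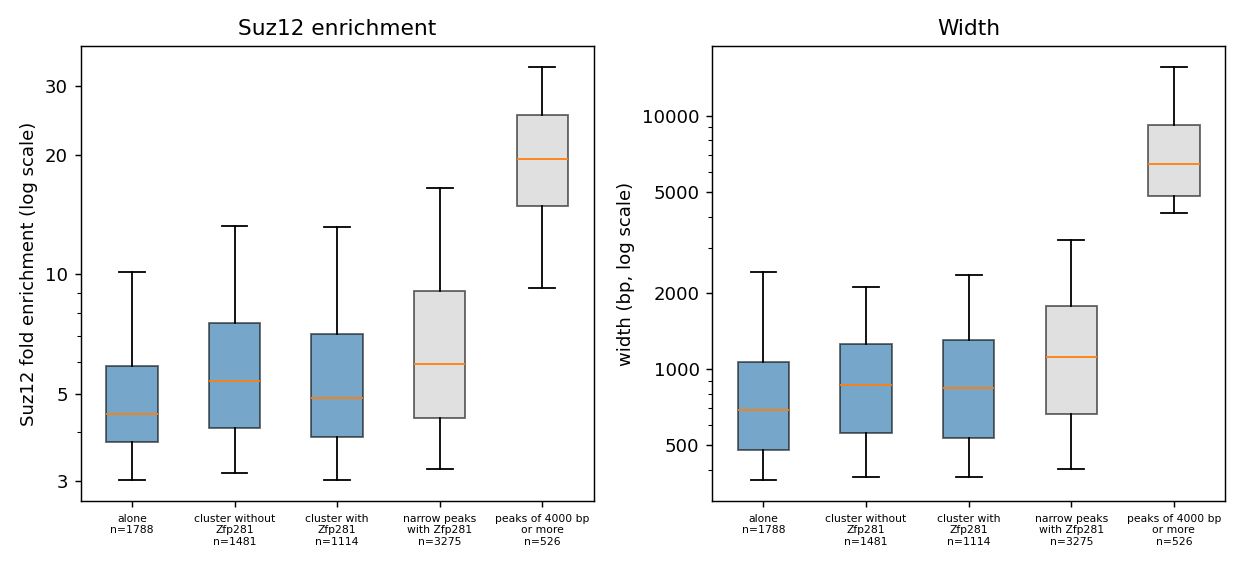
Suz12 fold enrichment (left) and width in bp (right), both on log scales, of the sites by neighbourhood (blue) and of the other Suz12 peaks (grey). Lines are medians, boxes quartiles, whiskers the 5th and 95th percentiles and n the number of peaks in 1 library; median fold is 4.43 for solitary sites, 5.39 in clusters without Zfp281 and 4.89 in clusters with it.

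Within clusters the pieces were separated by short gaps. Between a site and the adjacent Suz12 peak of its cluster the gap had a median of 553 bp (quartiles 340 and 964 bp, n = 2002 gaps), and the shortest was 143 bp. A Zfp281 peak touched the gap in 86 of 952 cases between a pair of sites, or 9.03% (7.37 to 11.0%). By the choice of sites, such a Zfp281 peak had to fit wholly inside the gap. These gaps had a median of 538 bp and ESC Zfp281 peaks a median width of 594 bp. Between a site and a Suz12 peak of another class a Zfp281 peak touched the gap in 524 of 1050 cases, or 49.9% (46.9 to 52.9%). Most of those neighbours carry Zfp281 by definition, so both shares are tied to the choice of sites.

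In 818 clusters the sites could be compared with narrow peaks with Zfp281, each taken as the median of its peaks in the cluster. The sites had the lower median fold in 501 of them, or 61.2% (57.9 to 64.5%). Over the clusters the medians were 5.23 and 6.21, with a median ratio of 0.871. The sites had the lower median width in 518, or 63.3% (60.0 to 66.6%), with medians of 876 and 1144 bp. In 197 clusters the larger median width exceeded the smaller by at most 25%. There the sites had the lower median fold in 95, or 48.2% (41.3 to 55.2%), and the median ratio was 1.02. At like median width within a cluster, a difference in Suz12 fold between peaks with and without Zfp281 was thus within the counting error.

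Clusters made of these sites alone numbered 676 and held 1462 sites, with a median span of 2652 bp. Most were pairs (596), followed by 60 of 3 peaks, 14 of 4, 4 of 5 and 2 of 7. One of the largest was chr1:63306969-63320999, with 7 sites within 14031 bp. Their widths ran from 393 to 1398 bp, their fold from 3.15 to 5.99 and their tags from 25 to 49, and the closest Zfp281 peak was only 23 bp from one of them. The other cluster of 7, chr18:37834488-37855343, had folds from 4.68 to 9.05 and no Zfp281 peak closer than 18716 bp. A cluster of 5, chr7:125720169-125729325, had folds from 3.35 to 7.23 and a Zfp281 peak 337 bp away. In contrast, chr15:102739284-102871888 held 7 sites among 19 Suz12 peaks, of which 10 carried Zfp281 and 5 were wide, and there the sites ranged from 3.04-fold to 20.6-fold.

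One stretch of chromosome 18 held more of these sites than any other window of 1 Mb. From 37089740 to 37975837 there were 59 sites among 65 Suz12 peaks, against 23 in the next densest window (chr17:35399322-36386663) and 19 in the third (chr15:102189531-103003093). The 6 Suz12 peaks there that were not of the class were 3 wide peaks without Zfp281 and 3 narrow peaks with it. The sites had a median width of 1524 bp and folds from 2.67 to 15.9 with a median of 6.07, higher in both than the 774 bp and 4.79 of the other 4324 sites. Of the 59, 50 had another Suz12 peak within 5 kb, or 84.7%. The median distance to Zfp281 was 127880 bp, and 34 of the 59 lay beyond 100 kb from any. The 10 Zfp281 peaks of the stretch had folds from 3.44 to 22.3. In the next densest window, by contrast, 65 Zfp281 peaks lay in the span and the sites had a median fold of 4.33. Chromosome 18 as a whole held 17.0 Zfp281 peaks per Mb and chromosome 17 held 25.9.

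**Figure D4:**
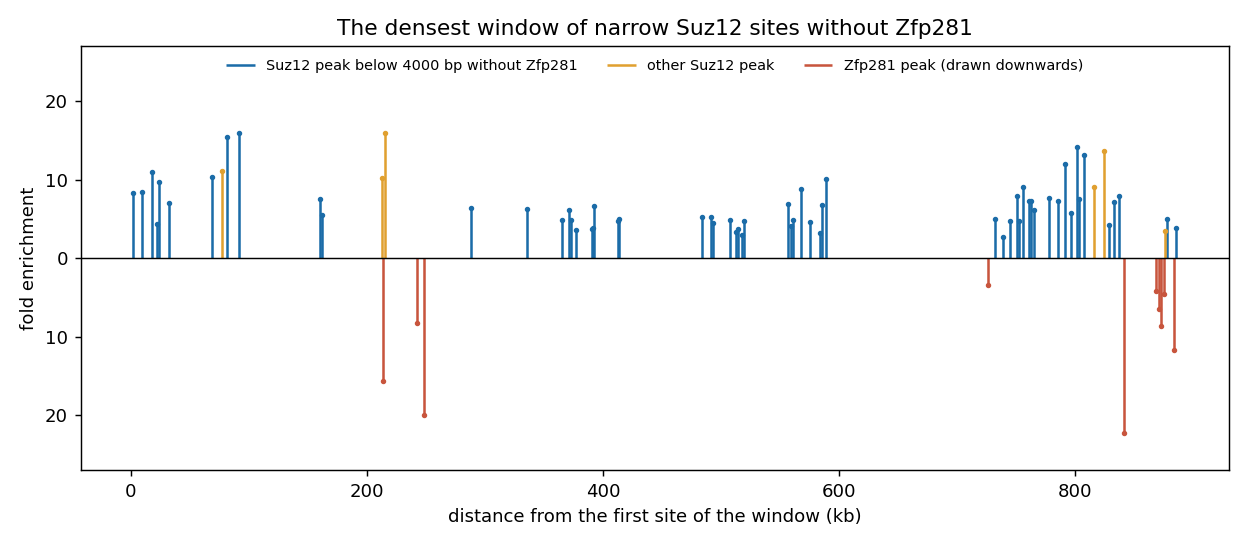
Fold enrichment (vertical axis) of Suz12 peaks (upwards) and Zfp281 peaks (downwards) in the window with the most sites, by distance in kb from its first site (horizontal axis); each line is 1 peak at its centre. The 59 sites (blue) form several groups with few Zfp281 peaks among them (red, 10 in all), and 6 other Suz12 peaks (yellow) lie among them.

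The share of narrow Suz12 peaks without Zfp281 varied little between most chromosomes. It ran from 48.6% on chromosome 8 (43.7 to 53.5%, 193 of 397) to 64.0% on chromosome 13 (58.5 to 69.1%, 197 of 308). The interval of chromosome 8 ended below the 57.2% of all narrow peaks, and those of chromosomes 13 and 3 (62.5%, 57.7 to 67.1%) began above it. Chromosome 8 also had 27.5 Zfp281 peaks per Mb, the second highest density after the 36.0 of chromosome 11, and the highest median expected level at its sites, 3.71; the part of either in its share was not tested. On chromosome X there were 0.690 sites per Mb, the lowest density, against 1.19 to 2.64 on the autosomes, and 4.55 Zfp281 peaks per Mb. Yet 57.2% of its narrow Suz12 peaks lacked Zfp281 (50.2 to 64.0%), the same share as over all chromosomes, and its sites had the highest median fold, 5.51, over the lowest median expected level, 2.82.

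**Figure D5:**
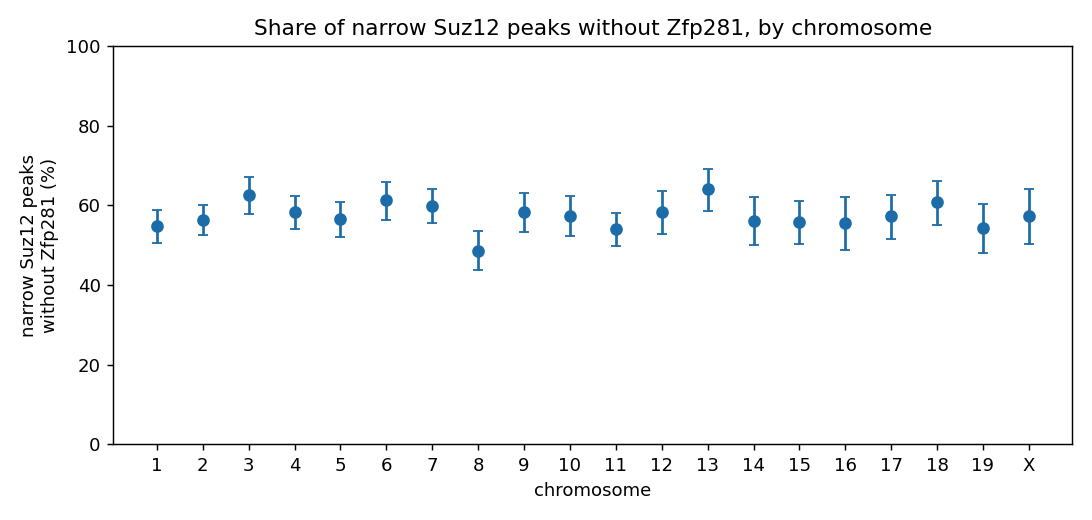
Share of narrow ESC Suz12 peaks without Zfp281 in percent (vertical axis) on each chromosome (horizontal axis). Points are shares and bars 95% Wilson intervals; chromosome 8 is lowest at 48.6% and chromosome 13 highest at 64.0%.

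Nearly all of these sites lacked a Zfp281 peak in XENs as well. A XEN Zfp281 peak overlapped 4 of the 4383 sites, or 0.0913% (0.0355 to 0.234%), where the share over the whole Suz12 list was 1.99%. Narrow peaks with Zfp281 in ESCs had an XEN peak in 128 of 3275 cases, or 3.91% (3.30 to 4.63%). These shares are tied to the choice of sites, because 2787 of the 3449 Zfp281 peaks of XENs also lay on one of the 52296 of ESCs. Of the 662 that did not, 3 overlapped a site. The share depended on the definition: it was 0.356% when overlap meant 50% of the shorter peak, and 0.266% with only the higher-scoring 50% of Zfp281 peaks. Within 1 kb of a XEN Zfp281 peak lay 52 sites, or 1.19% (0.906 to 1.55%), against 3.6% of the whole Suz12 list and 6.35% of narrow peaks with Zfp281 (5.57 to 7.24%).

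The 4 exceptions differed in strength. At chr1:158133611-158136713 Suz12 was 9.68-fold enriched in ESCs (61 tags, 3103 bp), and the XEN Zfp281 peak from 158133447 to 158134285 was 8.51-fold enriched, with its nearest ESC Zfp281 peak 8850 bp away. At chr10:87322344-87323853 the values were 6.51-fold for Suz12 (48 tags) and 4.83-fold for XEN Zfp281, which was 5295 bp from ESC Zfp281. Both were solitary Suz12 sites. The other two, chr2:158491731-158492104 (3.79-fold, 24 tags) and chr6:31518064-31518452 (3.79-fold, 25 tags), were small pieces of clusters in which 2 and 3 other Suz12 peaks carried ESC Zfp281. Their XEN Zfp281 peaks were 9.16-fold and 8.03-fold enriched, and the latter overlapped an ESC Zfp281 peak beside the site. The XEN Suz12 list held 4 peaks, and none of the 8184 ESC Suz12 peaks of any class overlapped one, so it says nothing about the sites in particular.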

How the data were processed

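The deposited data are 5 peak lists, 1 per immunoprecipitated library, in 10 columns without a header. Per the submitters' processing notes, the tools included FastQC 0.10.1, Bowtie2 2.3.4 and SAMtools 0.1.19 and the build was mm9; reads were paired, of 150 bp, per the labels' protocols. The peak caller, its control and its thresholds are not given in the sources used here. In each list the authors deposited a fold enrichment (a linear ratio), a -log10 p-value, a -log10 q-value and a score for each peak, and these values were used only within a list. The deposited score is the -log10 q-value times 10 without decimals, and was not used further.

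A shared base (1 bp) counted as overlap, and distances count the bases between nearest edges. Tags (fragments at the summit, unscaled) and expected levels (on the scale of tags times the scale factor) were recovered from fold and p-value, on the assumption of a Poisson p-value and a pseudocount of 1 added to both levels of the fold; with 1 scale factor, 0.590, every ESC Suz12 peak was matched within 0.002 in -log10 p. Overlap counting and this recovery were tested on simulated data, which for the recovery were made under the same assumptions and so do not test them. Shares have 95% Wilson intervals, and medians have binomial order-statistic intervals. Peaks were named by rank of -log10 q-value, closeness to the width limit and overlap with XEN Zfp281; positions at the extremes of distance, clusters and windows were chosen after their values were seen. The sites, lists and comparisons were chosen with earlier results of these data known. Sequence and gene annotation of mm9 were not used here, so shares near transcription start sites, CpG content and motifs were not run. Python 3.11.15, pandas 2.3.3 and scipy 1.17.1 were used.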

Additional observations from a re-analysis of the deposited data

How the results depend on the processing

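No paired analysis was possible because only 1 library existed per antibody and cell type. The planned shares at transcription start sites, of CpG-rich summits and of G-rich elements were not run. With the higher-scoring 50% of Suz12 peaks there were 1742 sites, 49.1% had another Suz12 peak and 49.0% a Zfp281 peak within 5 kb, the median fold was 7.37 and the median -log10 q-value 17.8. The neighbourhood shares under this setting, and under the links of 2 and 10 kb, were chosen after seeing the data. With the higher-scoring 50% they were 50.9% alone, 21.2% in clusters with Zfp281 and 28.0% in clusters without. Links of 2 kb gave 44.5% alone and 22.6% with Zfp281, and links of 10 kb gave 38.2% and 28.1%. Requiring an overlap of 50% of the shorter peak gave a Suz12 neighbour to 62.8%, Zfp281 within 5 kb to 64.0% and an XEN Zfp281 peak to 0.356%, with medians of 5.05-fold and 8.30. Using the higher-scoring 50% of Zfp281 peaks, 61.1% had a Suz12 neighbour, 33.3% Zfp281 within 5 kb and 0.266% an XEN Zfp281 peak, with medians of 4.98-fold and 7.96. Leaving out sites with Zfp281 within 1 kb gave 55.7% with a Suz12 neighbour and 33.3% with Zfp281 within 5 kb. A width limit of 2000 bp gave medians of 4.65-fold and 6.80. At 500 to 1000 bp, 57.5% had a Suz12 neighbour, 55.7% Zfp281 within 5 kb and 0% an XEN Zfp281 peak, with medians of 4.58-fold and 6.50. With wider limits, 1.19% had XEN Zfp281 within 1 kb, 64.9% ESC Zfp281 within 10 kb and 61.8% Suz12 within 10 kb. In all 6 settings that changed the peaks used, a lower share of sites than of narrow peaks with Zfp281 had a Suz12 neighbour, and the sites' median fold was lower. The shallowest sites, at 18 tags, limit what can be told apart.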
